A study of Homo sapiens with 24 samples.

Results

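The genes described here are the core and linker histone genes that lie in clusters on chromosomes 6 and 1, together with those of the same naming scheme elsewhere. They were chosen by symbol alone, as protein-coding GENCODE genes named H1- with a digit or H2AC, H2BC, H3C, or H4C with a digit, which gave 69 of 20098 protein-coding genes. Of these, 51 were on chromosome 6, 12 on chromosome 1, and 6 elsewhere, and by class there were 10 H1, 16 H2A, 17 H2B, 13 H3, and 13 H4 genes. Chromatin immunoprecipitation–sequencing (ChIP-seq) of Flag-tagged S100A8 or S100A9 was performed in MCF-10A cells, a nontransformed human breast epithelial line. The cells also carry ER-Src, in which an oncogenic Src kinase is joined to part of a hormone receptor and stays off until a receptor ligand is added. All cells stably expressed one tagged protein from an introduced construct, and were kept for 24 hours in 1 μM 4-hydroxytamoxifen (TAM), the ligand that switches ER-Src on and transforms the cells, or in ethanol (EtOH), the vehicle. Peak lists were used of S100A8 in EtOH from 2 libraries and of S100A8 in TAM, S100A9 in EtOH, and S100A9 in TAM from 3 libraries each. Pol II libraries were not used here.

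Replication-dependent histone genes supply the histones that package newly copied DNA, and they are transcribed mainly in S phase. They are short, mostly lack introns, and give messenger RNAs that end in a stem-loop in place of a poly(A) tail, and many stand head to head as H2A-H2B pairs with a shared promoter. A few genes that the naming rule takes are not of this kind. H1-10 encodes a replication-independent linker histone, H1-7 and H1-8 encode germline linker histones, and H1-6, H2AC1, and H2BC1 are testis genes.

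Sequences are shown for the coding regions in which peak summits fell and for the promoters between head-to-head genes in which none fell. All were read from GRCh37 (hg19), 5′ to 3′. In the first 4, given on the strand of the gene, capitals run from the first to the last summit that lay in the coding sequence over the libraries. H3C2 is at chr6:26032070-26032252 on the minus strand, H3C3 at chr6:26045641-26045894 on the plus strand, H4C4 at chr6:26189102-26189301 on the minus strand, and H2AC4 at chr6:26033613-26033757 on the minus strand.
H3C2: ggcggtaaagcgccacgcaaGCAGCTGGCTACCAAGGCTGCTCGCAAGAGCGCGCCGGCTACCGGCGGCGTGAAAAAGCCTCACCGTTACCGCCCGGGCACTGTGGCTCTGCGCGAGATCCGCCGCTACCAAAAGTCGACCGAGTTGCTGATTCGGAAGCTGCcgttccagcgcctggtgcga
H3C3: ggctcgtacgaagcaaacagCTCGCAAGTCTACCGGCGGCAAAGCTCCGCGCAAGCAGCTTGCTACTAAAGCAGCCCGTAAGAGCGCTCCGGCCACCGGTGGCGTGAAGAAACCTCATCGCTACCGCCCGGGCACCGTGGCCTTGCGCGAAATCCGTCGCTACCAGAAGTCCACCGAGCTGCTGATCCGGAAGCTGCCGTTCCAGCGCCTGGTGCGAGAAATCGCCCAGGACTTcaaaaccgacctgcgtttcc
H4C4: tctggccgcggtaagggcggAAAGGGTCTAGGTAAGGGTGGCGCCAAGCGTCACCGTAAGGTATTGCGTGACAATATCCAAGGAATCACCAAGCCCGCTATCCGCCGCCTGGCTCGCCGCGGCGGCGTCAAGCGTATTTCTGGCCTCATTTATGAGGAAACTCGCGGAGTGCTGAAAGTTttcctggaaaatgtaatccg
H2AC4: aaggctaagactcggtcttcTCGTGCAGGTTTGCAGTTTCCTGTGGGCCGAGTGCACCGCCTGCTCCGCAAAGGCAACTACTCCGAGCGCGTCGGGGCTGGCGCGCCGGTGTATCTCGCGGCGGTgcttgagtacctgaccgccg

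In the promoters of 2 head-to-head pairs, given on the plus strand from one start to the other, capitals mark the TATA box, searched as TATAAA. They also mark the CCAAT box, searched by those letters alone, and the octamer of the Oct factors, searched as ATTTGCAT, all on either strand. H2BC12-H2AC12 is at chr6:27114635-27114884 and H2BC4-H2AC6 at chr6:26124155-26124399.
H2BC12-H2AC12: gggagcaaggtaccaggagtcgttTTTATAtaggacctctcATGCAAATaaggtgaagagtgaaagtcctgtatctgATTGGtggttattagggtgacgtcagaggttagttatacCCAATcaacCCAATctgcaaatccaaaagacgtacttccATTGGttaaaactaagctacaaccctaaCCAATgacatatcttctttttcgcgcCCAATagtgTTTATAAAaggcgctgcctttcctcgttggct
H2BC4-H2AC6: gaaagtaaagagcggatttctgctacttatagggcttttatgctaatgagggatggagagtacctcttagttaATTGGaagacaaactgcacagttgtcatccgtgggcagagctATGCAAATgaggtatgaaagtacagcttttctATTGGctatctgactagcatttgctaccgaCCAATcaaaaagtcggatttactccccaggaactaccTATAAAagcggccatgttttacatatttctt

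A gene was counted as called in a library where a peak with q ≤ 1e-07 had its summit in the gene or within 1 kb of it. Of 358 such peaks at histone genes, 111 lay at more than 1 gene and were counted for each. Fold enrichment compares the ChIP signal at a summit with the chromatin input of the library. Read numbers are not in the lists and the depth is therefore unknown. At q ≤ 1e-07 the EtOH lists held 1853 to 4609 peaks and the TAM lists 21518 to 40735. As a check of the labels, all 6 S100A9 libraries had a summit in the coding exons of S100A9, as did 1 of the 5 S100A8 libraries, while none of the 5 had one in those of S100A8, so that this check bears on the S100A9 labels alone.

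The histone genes were called more often in TAM than in EtOH, as protein-coding genes in general were. In S100A8 EtOH, 26.1% and 20.3% of the 69 genes were called, beside a background of 16.9% and 18.1% of all protein-coding genes. In S100A9 EtOH, the shares were 31.9%, 23.2%, and 14.5%, beside 14.8%, 8.44%, and 17.6%. In S100A8 TAM, they were 56.5%, 50.7%, and 47.8%, beside 57.6%, 51.9%, and 49.3%. In S100A9 TAM, they were 62.3%, 60.9%, and 63.8%, beside 54.1%, 53.9%, and 66.2%. The EtOH and TAM libraries did not overlap, with means of 23.2% ± 6.48 (SD, n = 5) and 57.0% ± 6.52 (SD, n = 6). Relative to all genes, the histone share averaged 1.68 ± 0.78 in EtOH (SD, n = 5) and in TAM 1.03 ± 0.09 (SD, n = 6), so that in TAM the histone genes stood near the background. In S100A9 EtOH 3 the histone genes were below the background, and in the other 4 EtOH libraries above it. The EtOH ratio was lower at other thresholds, 1.07 ± 0.51 at q ≤ 1e-10 and 1.17 ± 0.23 with every deposited peak (SD, n = 5).

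Histone genes are short, and a short gene offers less sequence in which a summit can fall. Next, only summits within 1 kb of the start were counted, the start being here the outermost annotated 5′ end of the gene. This end lies far from the canonical start at H2BC6. Summit positions, gene pairs, and promoters were taken from the canonical start instead. With summits within 1 kb of the outermost start, the ratio averaged 2.62 ± 1.18 in EtOH (SD, n = 5) and in TAM 1.52 ± 0.17 (SD, n = 6). The histone share was above the background in all 11 libraries. In this window the background of all genes was 9.88% and 10.8% in S100A8 EtOH, 36.1%, 31.7%, and 29.5% in S100A8 TAM, 8.9%, 5.22%, and 10.4% in S100A9 EtOH, and 34.1%, 34.4%, and 44.4% in S100A9 TAM. When each library was limited to its 1853 strongest peaks, the order of the treatments turned, with 14.5% of histone genes called in EtOH and 4.83% in TAM, beside 7.97% to 8.44% and 7.05% to 7.76% of all genes. The ratio to all genes was then 1.76 ± 0.76 in EtOH (SD, n = 5) and 0.65 ± 0.33 in TAM (SD, n = 6). The higher share in TAM goes with the longer lists, and more binding, greater depth, and other reasons for a longer list cannot be told apart.

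**Figure D1:**
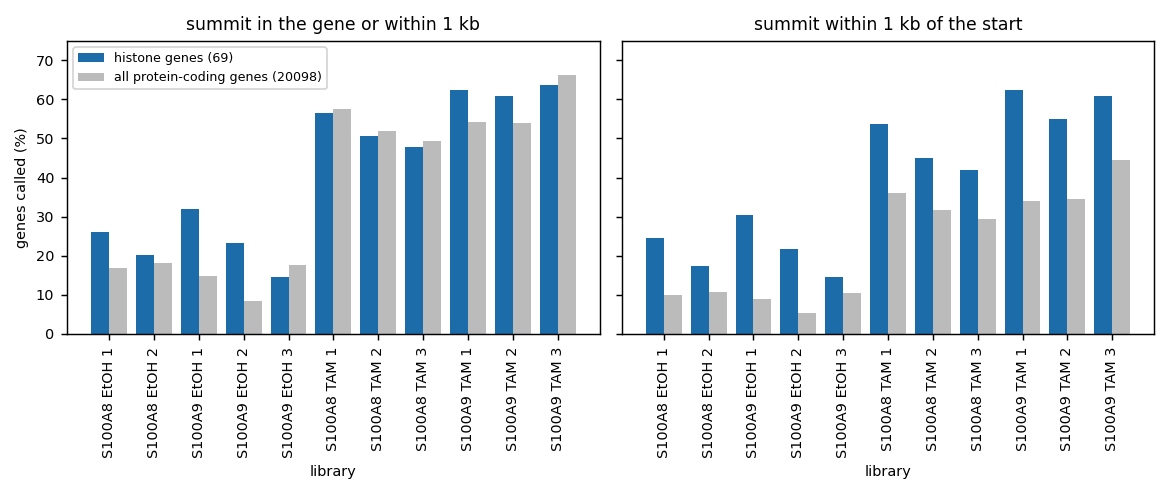
Share of genes called (%) in each of the 11 libraries, for the 69 histone genes (blue) and all 20098 protein-coding genes (gray), with the summit in the gene or within 1 kb (left) and within 1 kb of the outermost annotated start (right). On the right the blue bar is the higher one in all 11 libraries, while on the left the bars in TAM are close to each other.

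By class, H2A genes, which encode a core histone that pairs with H2B, were called at 26.25% ± 12 in EtOH (SD, n = 5) and 66.7% ± 14.1 in TAM (SD, n = 6). H2B genes were called at 25.9% ± 11.5 in EtOH and 60.8% ± 10.95 in TAM, with the same numbers of libraries. H3 genes were called at 27.7% ± 8.77 and 47.4% ± 5.79, and H4 genes, which encode the partner of H3, at 13.8% ± 6.44 and 51.3% ± 3.97. H1 genes, which encode the linker histones, were called at 20% ± 12.2 and 55.0% ± 5.48. The background of all protein-coding genes averaged 15.2% ± 3.96 in EtOH and 55.5% ± 5.92 in TAM. In EtOH the H4 genes had the lowest mean share, and the libraries of the classes overlapped. In TAM the H2A and H2B genes had the highest mean shares and the H3 genes the lowest, but the libraries overlapped here too, from 43.75% to 81.25% for H2A and from 38.5% to 53.8% for H3. In all, 5 of the 13 H4 genes and 4 of the 13 H3 genes were called in no library. Of these uncalled genes, 2 H4 and 3 H3 genes have under 50% of their 50-base stretches unique in the genome. Without the genes under 50%, chosen after seeing the data, the share in TAM was 61.7% ± 7.53 for H3, 60.6% ± 4.69 for H4, and 55.0% ± 5.48 for H1 (SD, n = 6), so that H3 was no longer the lowest.

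By position, the chromosome 6 genes fell into 3 blocks. The 30 genes of the first block, within chr6:25722625-26286866, were called at 26.7% ± 11.3 in EtOH (SD, n = 5) and 65.0% ± 8.63 in TAM (SD, n = 6). The 5 genes of the second, within chr6:27092676-27116341, were called at 40.0% ± 24.5 and 63.3% ± 26.6. The 16 genes of the third, within chr6:27774257-27862669, were called at 12.5% ± 9.88 and 53.1% ± 9.48. The background of all protein-coding genes was 15.2% in EtOH and 55.5% in TAM. Summits within the first block were concentrated at the genes, with 12 to 20.7 summits per 100 kb in the windows of the histone genes and 0.48 to 1.93 between them in the TAM libraries. In the EtOH libraries these densities were 2.67 to 9.36 and 0 to 0.48.

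The 12 chromosome 1 genes were split, with 5 called in all 6 TAM libraries, 6 called in no library, and H2BC18 called only in S100A9 TAM 3. All 5 of the former, H2AC20, H2AC21, H2BC21, H2AC25, and H2BC26, were also called in at least 2 EtOH libraries. Of all protein-coding genes, 27.8% were called in all 6 TAM libraries, 23.7% in no library, and 20.5% in at least 2 EtOH libraries. The 6 uncalled genes and H2BC18 have under 50% of their 50-base stretches unique in the genome, so that the split goes with unique sequence.

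**Figure D2:**
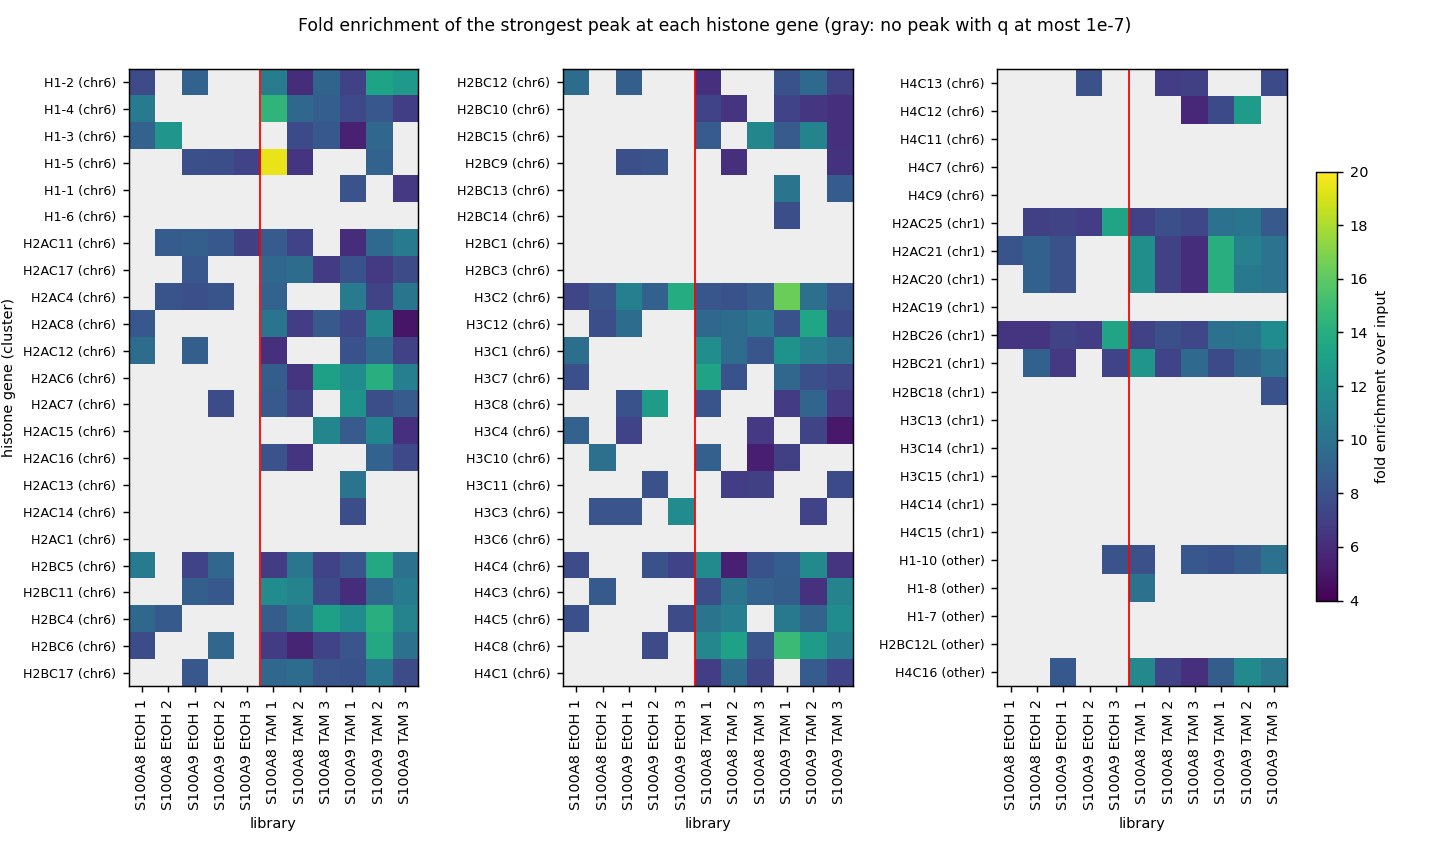
Fold enrichment over input (color) of the strongest peak with q ≤ 1e-07 at 68 of the histone genes (rows) in the 11 libraries (columns; the red line parts EtOH from TAM), with gray where no such peak was found. H3C2 and H2BC26 are colored in all 11 libraries, and 16 genes are gray throughout.

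Both H3C2 and H2BC26 were called in all 11 libraries, which is 2.90% of the histone genes beside a background of 1.06%. H3C2 (ENSG00000286522, chr6:26031817-26032327, minus strand) encodes a canonical H3 histone. Its fold enrichment was 7.37 and 8.09 in S100A8 EtOH, 8.28, 8.04, and 8.61 in S100A8 TAM, 10.9, 8.95, and 13.9 in S100A9 EtOH, and 16.4, 9.93, and 8.24 in S100A9 TAM. The EtOH and TAM values overlapped, and the highest value of each treatment was in a S100A9 library. All 11 summits lay in the coding sequence printed above, 95 to 237 bp downstream of the start, and the peaks merged into one site at chr6:26031842-26032511, the only one of 86 distinct sites at histone genes that was present in all 11 libraries.

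H2BC26 (ENSG00000196890, chr1:228645804-228650805, plus strand) and H2AC25 (ENSG00000181218, chr1:228622478-228645574, minus strand) stand head to head, and encode an H2B and an H2A histone. The fold enrichment at H2BC26 was 6.44 and 6.43 in S100A8 EtOH, 7.10, 7.92, and 7.48 in S100A8 TAM, 7.30, 6.92, and 13.3 in S100A9 EtOH, and 10.02, 10.2, and 11.8 in S100A9 TAM. The 3 S100A9 TAM values were above the 3 S100A8 TAM values, but not all values came from one site. The 11.8 of S100A9 TAM 3, the 6.44 and 6.43 of S100A8 EtOH, and the 7.30 of S100A9 EtOH 1 came from the site at chr1:228646119-228647294. The other values came from that at chr1:228644839-228645934. In 8 libraries the strongest peak was the same one for both genes, and in 7 of these it belonged to the site at chr1:228644839-228645934, which was present in 10 libraries with summits in the coding sequence of H2AC25. In the remaining library, S100A9 EtOH 1, it belonged to the site at chr1:228646119-228647294. A shared peak cannot be given to one of the genes.

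Among the other genes called most often, H4C4 was called in 9 libraries, 3 in EtOH with fold enrichments of 7.75, 7.98, and 7.24, and 6 in TAM with 5.42 to 11.6. H2AC11 was called in 4 EtOH libraries with 7.01 to 8.81 and in 5 TAM libraries with 6.11 to 10.7. H2AC21 and H2BC21, neighbors on chromosome 1, were each called in 3 EtOH and 6 TAM libraries. H2BC4, H1-2, H2BC6, and H2BC11 were each called in 2 EtOH and 6 TAM libraries, and H2BC5 in 3 and 6. H3C12 was called in 2 EtOH and 6 TAM libraries, H4C5 in 2 and 5, and H3C8 and H1-3 in 2 and 4 each. In all, 24 histone genes were called in at least 2 EtOH libraries, 34.8% beside a background of 20.5%. The strongest peak in TAM belonged to one site at chr6:26172022-26172419 in 5 of 6 libraries at H2BC5 and 6 of 6 at H2BC6. This site lay far from the canonical start of H2BC5, by 13842 to 13933 bp, because the annotated gene is long. At H2BC6 the summits of all 8 libraries that called it lay in this same site, at −11864 to −11706 bp from its canonical start. No other site was found at H2BC6, so that its calls do not mark the surroundings of that start. H2BC5 also had a summit within 1 kb of its start in 3 EtOH and 5 TAM libraries, with fold enrichments of 7.22 to 10.7 and 6.32 to 11.7. In S100A8 EtOH 2, S100A8 TAM 2, and S100A9 TAM 3, the strongest peak at H2BC4 lay 19858 to 19926 bp downstream of its start. It belonged to the site at chr6:26103917-26104436, shared with H4C3. At H2BC11 the strongest peaks of the S100A8 TAM libraries lay 5471 to 5517 bp downstream of its start. Both EtOH summits counted for H2BC11 lay within H2AC11.

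H1-5, a linker histone gene, had the highest fold enrichment of any histone gene, 19.5 in S100A8 TAM 1. Its other 5 values were 6.42 in S100A8 TAM 2, 7.89, 7.83, and 7.24 in S100A9 EtOH, and 9.02 in S100A9 TAM 2. The 6.42 and 9.02 had summits 948 and 1428 bp downstream of its start, outside the gene, in sites shared with H2AC16. The summits of the 19.5 and of the EtOH values lay within H1-5. The value of 19.5 thus stood in 1 library, and the gene was not called in S100A8 TAM 3, S100A9 TAM 1, or S100A9 TAM 3. Of the genes outside both clusters, H4C16 was called in 1 EtOH and 6 TAM libraries, H1-10 in 1 and 5, H1-8 in 1 TAM library, and H1-7 and H2BC12L in none.

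Treatments were compared gene by gene with an exact permutation test of the TAM and EtOH labels within each protein, two-sided, with 200 arrangements and a smallest possible p of 0.01. None of the 69 histone genes passed an adjusted p of 0.05 by this exact test, nor did any of the 15333 genes called in at least 1 library (0.0%), and the smallest adjusted p was 0.131. Even a gene called in all 6 TAM and no EtOH libraries had this adjusted p, so that the count of 0 does not show equal calls. At an unadjusted p under 0.05, 13 of the 53 histone genes tested had more calls in TAM, or 24.5% beside a background of 26.2%, and 0 had more in EtOH (background 0.0%). The count of 13 was 0 with every deposited peak used and also with equal numbers of peaks, 7 with the summit in the gene body only, and 1 to 5 without 1 library each. By direction alone, 48 of 53 had the larger share of TAM libraries, 90.6% beside 96.3%. No histone gene was called in EtOH libraries only, as were 0.308% of all genes.

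H2AC6, an H2A gene of the first block, was the only histone gene called in all 6 TAM and no EtOH libraries (exact permutation p = 0.01, adjusted p = 0.131), and 7.65% of all genes tested had this smallest p. Its fold enrichment in TAM was 8.70, 6.47, and 13.1 for S100A8 and 11.8, 14.0, and 10.9 for S100A9. The 14.0 and 10.9 had summits at −922 and −927 bp from its start, in the site at chr6:26123149-26124203 within H2BC4. That site was also present in 1 EtOH library. In 4 of these libraries the same peak was also the strongest one at H2BC4, its head-to-head partner. Among the others of the 13 were H4C16, H3C1, H4C1, H4C3, H1-4, H2AC8, H2BC10, H4C8, H2BC15, H2AC17, and H2BC17, each called in 5 or 6 TAM and at most 1 EtOH library. H4C8 had the stronger peaks of these, with 11.4, 13.1, and 8.22 in S100A8 TAM and 14.9, 12.8, and 10.8 in S100A9 TAM, beside 7.74 in S100A9 EtOH 2. The 11.4 and 8.22 had summits at −1013 and −953 bp from the start of H4C8. They came from the site at chr6:26286568-26286860, which was present in no EtOH library. The other values, with that of EtOH, came from the site at chr6:26285372-26286182.

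H3C3, an H3 gene, was the only one with the larger share of EtOH libraries, which 1.22% of all genes tested had. It was called in S100A8 EtOH 2, S100A9 EtOH 1, and S100A9 EtOH 3 with fold enrichments of 8.20, 8.23, and 11.7, and in TAM only in S100A9 TAM 2 with 7.23. Its difference did not pass the test (exact permutation p = 0.4, adjusted p = 0.555). The coding sequences of H3C3 and H3C2 were 85.2% identical over 411 bases.

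S100A8 and S100A9 were compared in the same way within each treatment. The smallest possible p was again 0.01, so that a count of 0 past the adjusted p does not show equal calls. No histone gene passed an adjusted p of 0.05 by the exact permutation test, and none had an unadjusted p under 0.05, as did 5 genes with more calls in S100A9 (0.0326%) and 8 with more in S100A8 (0.0522%) of all those tested. By direction alone, 31 of 53 histone genes had the larger share of S100A9 libraries, 58.5% beside 41.1%, and 16 that of S100A8, 30.2% beside 38.4%.

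With at least 2 replicates required in a condition, 37 histone genes were called for S100A8 in TAM (53.6%, background 54.5%) and 42 for S100A9 in TAM (60.9%, background 60.2%). In EtOH these numbers were 5 for S100A8 (7.25%, background 7.77%) and 13 for S100A9 (18.8%, background 9.47%). S100A8 in EtOH has 2 libraries and S100A9 in EtOH 3, so that this rule is harder to meet for S100A8, and without S100A9 EtOH 1 the number for S100A9 was 6. In TAM 33 genes met the rule for both proteins (47.8%, background 49.4%). Met in EtOH but in TAM for neither protein, the rule was fulfilled by H3C3 and H2BC9, both for S100A9 (2.90%, background 0.0846%, or 17 genes). H2BC9 was nevertheless called in S100A8 TAM 2 and S100A9 TAM 3, with −log10 q values of 10.1 and 13.8. These were above its values of 7.62 and 7.29 in S100A9 EtOH 1 and 2. Its fold enrichments went the other way, 6.16 and 6.34 in these TAM libraries and 7.90 and 8.06 in these EtOH libraries. H2BC9 was thus called in both treatments, and which peaks are stronger depends on the measure.

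The position of the summits differed between histone genes and other genes. Among strongest peaks within 1 kb of the canonical start, the median summit lay 60.5 to 227.5 bp downstream of that start at histone genes in the 11 libraries. At other protein-coding genes it lay between −69.5 and −40 bp, that is, upstream. The ranges of the library medians did not overlap, although the quartiles of single libraries did. Over all libraries, the median was 93 bp for 287 peaks at histone genes and −64 bp for 53995 at other genes. In EtOH the histone median was 159 bp and in TAM 77 bp. At the 463 other protein-coding genes of at most 1 kb, taken as a comparison of length, the library medians ran from −177 to 105 bp on 205 peaks in all, and in 9 of 11 libraries they were upstream.

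**Figure D3:**
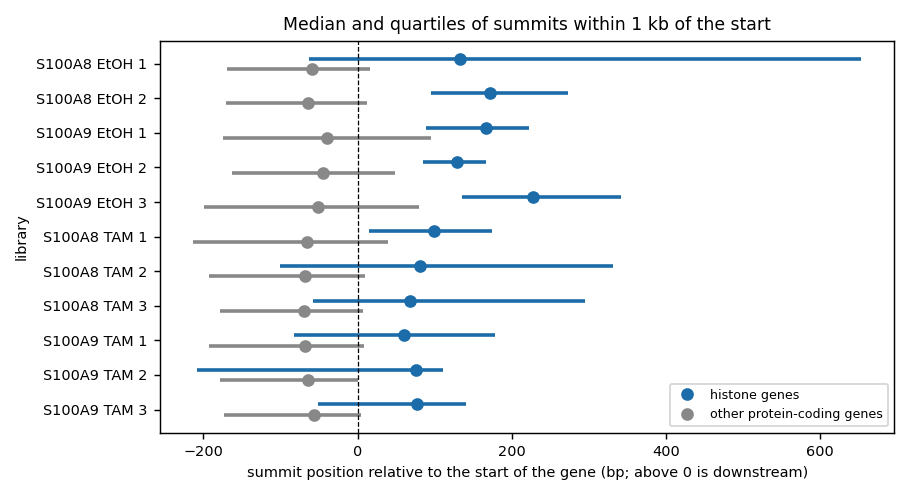
Summit position in bp relative to the canonical start of the gene in each library, with the median (dot) and quartiles (line) for histone genes (blue) and other protein-coding genes (gray). All 11 blue medians lie downstream of the start, at 60.5 bp or more, and all 11 gray medians upstream, at −40 bp or less.

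Accordingly, 175 of 358 peaks at histone genes (48.9%) had their summit in coding sequence, 72 (20.1%) upstream, 85 (23.7%) downstream, and 25 (6.98%) in an untranslated part of an exon. In EtOH 48 of 71 (67.6%) and in TAM 127 of 287 (44.3%) were in coding sequence. The coding sequence of H2AC4, an H2A gene, held all 7 of its summits, that of H3C3 all 4, and that of H4C4 5 of 9. Peaks at histone genes were in the middle of their lists, with a median percentile by q of 30.2 to 63.5 per library, and their median fold enrichment was 8.06 in coding sequence and 7.87 upstream.

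No summit lay between the starts of head-to-head histone genes. There were 11 such pairs with starts up to 1 kb apart, separated by 193 to 978 bases, and in 9 of them a gene was called in at least 2 libraries. Of 65 summits that lay between the starts or within 500 bp into either gene, 0 were between the starts, and 61 peaks had their summit in coding sequence of one of the genes. At the 552 other protein-coding pairs separated by 193 to 978 bases, 1995 of 3149 such summits lay between the starts, or 54.8% to 68.4% per library. All histone stretches except that of H3C7-H2BC9, of 978 bases, were 193 to 250 bases long. The other pairs were not matched to them in spacing within the range, and a longer stretch offers more sequence for a summit. Of peaks at histone pairs, 40 reached into the stretch between the starts without having their summit there, and with every deposited peak used, 54 did and again 0 summits lay between. At the H2BC12-H2AC12 promoter printed above, the summits of the 6 libraries that called H2AC12 all lay in its coding sequence. The EtOH libraries held 1 to 5 of these 65 summits each.

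**Figure D4:**
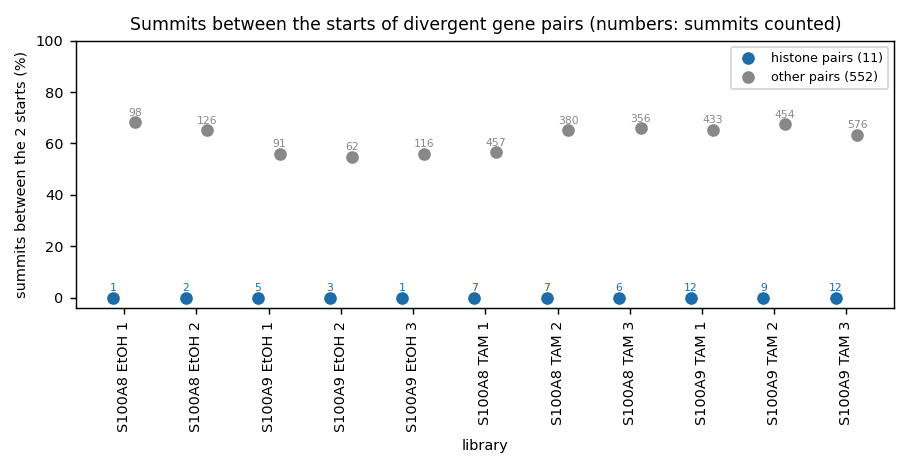
Share of summits (%) between the starts of head-to-head gene pairs in each library, out of those between the starts or within 500 bp into either gene, for 11 histone pairs (blue) and 552 other pairs (gray), with the number of summits beside each dot. The blue dots are at 0 in all 11 libraries and the gray dots between 54.8 and 68.4.

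The promoters, from 250 bases before to 50 after the start, differed from other promoters in their sequence. A TATA box was found in 45 of 69 (65.2%, beside 9.82% of all promoters), a CCAAT box in 57 (82.6%, beside 35.9%), and an octamer in 25 (36.2%, beside 1.58%), with 12 of the 16 H2A and 13 of the 17 H2B promoters holding the octamer and none of the other classes. The KLF/SP1 letters CCCCGCCC were in 3 (4.35%, beside 33.8%), the ETS letters CGGAAG in 8 (11.6%, beside 25.2%), the CREB letters TGACGTCA in 10 (14.5%, beside 2.69%), and the AP-1 letters TGANTCA in 1 (1.45%, beside 5.43%). The genes called in all 6 TAM libraries and those called in none had a TATA box in 17 of 23 and 10 of 16 promoters, and a CCAAT box in 19 of 23 and 11 of 16.

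Within 100 bp of the summits the peaks at histone genes differed from the lists as a whole. AP-1 letters were near 0% to 8.33% of histone summits per TAM library, beside 27.05% to 31.6% of all summits, and near none in EtOH, beside 10.5% to 17.6%. The EtOH libraries held only 9 to 18 histone summits each. The lists as a whole also hold enhancer sites, and the paper found the AP-1 motif only weakly enriched at promoter sites. AP-1 letters were in 5.43% of all promoters. A comparison with summits near the starts of other genes was not made. KLF/SP1 letters were near 0% to 5.26% of histone summits in TAM, beside 9.01% to 11.8%, and near none in EtOH, beside 11.8% to 14.4%. ETS letters were near 7.89% to 20.5% of histone summits in TAM, beside 11.6% to 13.8%, which overlap. The median GC content of these windows was 55.2% to 57.7% at histone summits and 55.2% to 57.2% over all summits in TAM. A match of letters is a description and does not show a binding site.

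In 16 histone genes no peak was called in any library, 23.2% beside a background of 23.7%. On chromosome 1 these were H3C13, H3C14, H3C15, H4C14, H4C15, and H2AC19, on chromosome 6 H2AC1, H2BC1, H2BC3, H1-6, H3C6, H4C7, H4C9, and H4C11, and elsewhere H1-7 and H2BC12L. The authors kept uniquely mapped reads, and of all 50-base stretches in the window of H3C14, H3C15, H4C14, and H4C15 none was unique in the genome. In H2AC19 the share was 9.47%, in H2BC18 28.6%, and in H3C13 34.3%. These 7 genes lay under 50%, and 6 of them were called in no library and H2BC18 in 1, so that missing binding and missing reads cannot be told apart there. Of the 62 genes at 68.5% or more, 10 were called in no library, which include the testis genes H1-6, H2AC1, and H2BC1. Another of the 10, H4C11, had 80.7% unique stretches in its window but 19.5% in the gene itself, and its coding sequence was 100% identical to that of H4C12, so that missing binding and missing reads cannot be told apart at H4C11 either. Without the 7 genes, the share called over that of all genes was 1.14 in TAM and 1.87 in EtOH.

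**Figure D5:**
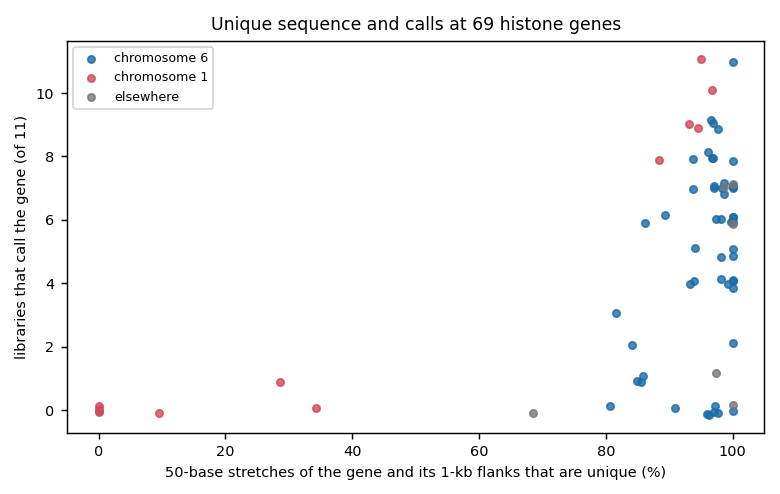
Number of libraries (of 11, with small vertical offsets) that called each of the 69 histone genes against the share (%) of 50-base stretches in the gene and its 1-kb flanks that occur once in the genome. The 7 genes under 50% are all on chromosome 1 and were called in 0 or 1 library, and the genes above spread from 0 to 11.

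Genes that serve the histone genes were called as follows. Of 15 genes of histone gene transcription, 14 were called in at least 1 library, as were 76.3% of all genes, and 6 in all 6 TAM libraries, beside 27.8% of all genes. Among them NPAT, a coactivator of histone genes, was called in 1 EtOH and 6 TAM libraries, and POU2F1, which encodes the octamer-binding Oct-1, in 3 and 6. Of 13 genes of histone mRNA 3′ end processing, all were called in at least 1 library and 8 in all 6 TAM libraries, including LSM11, a U7 snRNP subunit, in 3 EtOH and 6 TAM libraries and CPSF1 in 4 and 6. Of 16 histone chaperone genes, 16 were called and 5 in all 6 TAM libraries, including HIRA and NPM1 in 4 and 6 each. Of 11 genes of replication-independent and variant histones, 9 were called and 4 in all 6 TAM libraries, including H3-3A, which encodes H3.3, in 4 and 6. Of the histone genes of the rule, 23 of 69, or 33.3%, were called in all 6 TAM libraries. No gene of these lists passed an adjusted p of 0.05 in the exact permutation test, and 6 of 14, 6 of 13, 4 of 16, and 4 of 9 genes tested in the 4 lists had more calls in TAM at an unadjusted p under 0.05, beside 26.2% of all genes tested.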

How the data were processed

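ChIP-seq peak lists of 11 Flag libraries were used. Reads had been aligned by the authors to hg19 using Bowtie2, and only those that mapped uniquely were retained. Narrow peaks had then been called per library against its input using MACS2, and the versions are not given in the sources used here. The deposited fold enrichment is the ratio of the signal at the summit to that input, and the deposited −log10 q value is that of the same MACS2 call. The lists reach down to a −log10 q of 1.30. No read counts are in them, and so no interval that needs the depth was computed.

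Peaks with q ≤ 1e-07, the threshold of the study's methods, on chromosomes 1 to 22 and X were assigned by their summit to the protein-coding genes in GENCODE 44 as lifted to GRCh37. Calls were compared by an exact permutation test of the labels within protein or within treatment, two-sided by doubling the smaller tail, with Benjamini-Hochberg adjustment over 15333 genes. The test was checked on simulated calls. Shares over the histone genes are given without a p value. Same-numbered libraries of the 2 treatments were not taken as pairs, since their deviations from the condition means correlated at −0.0185 to 0.0159 over 5 pairs. Stretches of 50 bases were called unique when no other place in GRCh37 held them on either strand. Motif letters were matched without mismatches on both strands. Scripts used Python 3.11.15 with numpy 2.4.6, pandas 2.3.3, and numba 0.67.0.

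Genes were named by rule: the 8 and 4 genes of the chromosome 6 and chromosome 1 clusters called most often, up to 20 genes called in at least 2 EtOH libraries, those called in no library, those outside both clusters, and up to 4 genes of each other list. H2AC6, the other genes with an unadjusted p under 0.05, H2BC9, H2BC18, and H2AC12 were named after their values were seen. The histone genes and lists were chosen with earlier results of these data known. One histone gene that the rule takes is counted among the 69 but not reported here by itself.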

Additional observations from a re-analysis of the deposited data

Results flagged for a closer look

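On chromosome 1, 50% of the histone genes were called in S100A9 TAM 3, while 41.7% were called in each of the other 5 TAM libraries. This library stood apart from the others of the TAM treatment by 1 gene, H2BC18, and it also had the longest list, 40735 peaks with q ≤ 1e-07. Chance alone marks about 1 in 20 groups in this way.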

How the results depend on the processing

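Of 253 recomputed values, 211 kept their direction and stayed near the reported value, 41 moved, and 1 changed sign. With an equal number of peaks per library, the difference between TAM and EtOH in the share of histone genes called, 33.8 percentage points as reported, became −9.66, with 14.5% in EtOH and 4.83% in TAM and a ratio to all genes in TAM of 0.651. It was 16.6 with every peak as deposited, 22.3 with the summit in the gene body only, and 31.6 to 36.0 without 1 library each.

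At q ≤ 1e-10 the share was 6.67% in EtOH and 45.4% in TAM, and with every peak as deposited 55.7% and 72.2%. The ratio to all genes was 1.07 in EtOH and 1.11 in TAM at q ≤ 1e-10, and 1.17 and 0.95 with every peak. With the summit in the gene body only the share was 39.1% in TAM, with a ratio of 0.91. With the summit within 1 kb of the outermost annotated start the ratio was 2.62 in EtOH and 1.52 in TAM. Without genes under 50% unique, an alternative chosen after seeing the data, it was 1.14 in TAM.

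The number called in at least 2 replicates moved in both treatments. For S100A8 in EtOH it was 2 at q ≤ 1e-10, 31 with every peak, 2 with equal numbers of peaks, 3 within 1 kb of the start, and 3 in the gene body. For S100A9 in EtOH it was 1, 39, and 6 under the first 3 of these, and 6 to 13 without 1 library each. For TAM it was 0 for S100A8 and 1 for S100A9 with equal numbers of peaks, and 22 for S100A8 in the gene body.

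With the replicate block, 32 arrangements remain and the smallest possible p, 0.0625, is above 0.05, so that the count of 0 genes was fixed in advance, and the difference was 34.8 points. Under the other alternatives run, no histone gene passed the exact test. At an unadjusted p under 0.05, the count of 13 was 0 with every peak and with equal numbers of peaks, 7 in the gene body, and 1 to 5 without 1 library each, where fewer arrangements remain. The cause of these changes was not tested.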
